A study of Mus musculus with 9 samples.

Results

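The 40 genes described here encode the enzymes of the urea cycle and of amino acid breakdown in the liver, and were listed by function. A gene entered through array probe sets annotated to it and to no other gene. This held for 35 of the 40, measured by 48 probe sets, among 12393 genes measured in this way on the array. Ass1, the urea cycle enzyme argininosuccinate synthase, was represented only by a probe set annotated to several genes, and Gls2, Sds, Sdsl and Amt had no matching probe set in the annotation used. These 5 genes are not analysed here. All 35 measured genes passed the intensity filter, which kept probe sets with a mean intensity of at least 42.0. Where a gene had several probe sets, the brightest stands for it, and the others are described where they differ.

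Liver RNA was hybridised to 9 mouse arrays, 3 per group. The T-TSU group consisted of males of the athymic strain BALB/c nu/nu, which lacks mature T cells. Implantation of the human colon cancer TK-4 into the cecal wall took place at 6 weeks of age, and from day 7 the mice were given oral TSU68 at 400 mg/kg per day in 2 daily doses for 1 week. TSU68 blocks the tyrosine kinases of VEGF, PDGF and FGF receptors. T-Co mice carried the same tumour and received vehicle, and NT-Co mice had no tumour and received vehicle. The strain, sex and age of the NT-Co mice are not given separately. The tumour grew in another organ, in a host without T cell immunity. No operation on the NT-Co mice is described, so tumour and implantation cannot be told apart, and neither the hour of collection nor the feeding state is given. Whether each numbered sample was a separate animal is not stated, and the p-values measure the spread among samples, which may be technical. Treated mice without a tumour are not analysed here, so the drug is seen only in tumour-bearing mice.

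The liver disposes of most of the body's amino acid nitrogen. Transaminases and glutamate dehydrogenase collect it as glutamate and ammonia. Cps1 joins ammonia and bicarbonate in the mitochondrion, in a step that requires N-acetylglutamate made by Nags. Otc, Ass1, Asl and Arg1 then turn carbamoyl phosphate into urea. The carbon skeletons leave by separate routes, through homogentisate for tyrosine, kynurenine for tryptophan, urocanate for histidine, and S-adenosylmethionine, homocysteine and cysteine for methionine. Many of these enzymes are induced in the liver by fasting, glucagon and glucocorticoids, and most urea cycle enzymes are denser around the portal vein, while Glul is restricted to the cells around the central vein.

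Every array had a trimmed mean between 500.262 and 500.279. Replicates resembled each other, with average correlations to their own group of 0.945 to 0.962. The second principal component set T-Co replicate 13 apart (48.7, against -31.0 to 17.7 for the rest). The beta-actin signal at the 3' end was divided by that at the 5' end, which gauges RNA integrity and labelling. This actin ratio was 2.02 ± 0.20 in T-TSU, 1.98 ± 0.11 in T-Co and 2.72 ± 0.44 in NT-Co (mean ± SD, n = 3 each), and so separated both tumour groups from NT-Co. The 8 measured of 10 hepatocyte markers summed to between 221432 and 250977 in T-TSU, 274948 and 280167 in T-Co, and 230127 and 254778 in NT-Co. Ahsg and Tat, an amino acid enzyme described below, rose in T-Co against NT-Co. No other hepatocyte marker was called, and the list had a median log2 difference of 0.14. Of 5 measured cholangiocyte markers, Cftr, Epcam and Krt7 were below the filter, as were 7 of 9 lymphocyte markers. The 11 measured of 12 macrophage markers summed to between 5075 and 11079.6 in T-TSU, 11203 and 17098 in T-Co, and 8497 and 11677 in NT-Co. Cd163 of the macrophage list and Pecam1 of the endothelial list rose in T-Co against NT-Co. Pecam1 had 16.1, 68.8 and 19.0 in NT-Co, with replicates 8 and 11 below the filter intensity of 42.0. No other endothelial marker was called, and the list had a median log2 difference of 0.33. The 10 measured endothelial markers summed to between 2032 and 2931 in T-TSU, 2970 and 4780 in T-Co, and 2490 and 3247 in NT-Co. The 9 measured stellate cell markers summed to between 6181 and 7376 in T-TSU, 5569 and 6318 in T-Co, and 6992 and 7685 in NT-Co, and Col3a1 fell in T-Co. The 4 measured of 7 red cell precursor markers summed to between 1208 and 2260.3 in T-TSU, 383 and 1108 in T-Co, and 2074 and 2459.8 in NT-Co, and Alas2 fell in T-Co. The 6 measured of 9 pancreatic acinar markers summed to between 1192 and 1909 in T-TSU, 827 and 1214 in T-Co, and 2312 and 2489 in NT-Co, with Cpa1, Cpb1 and Ctrb1 below the filter, and Cela1 fell in T-Co. The hepatocyte, stellate, red cell and pancreatic sums thus did not overlap between T-Co and NT-Co, while the macrophage and endothelial sums did. Across the 3 pancreatic markers tested, the median log2 difference from NT-Co was 0.94 in T-Co and 0.73 in T-TSU, against the direction of the sum. The part of the actin ratio and of these marker signals in the results was not tested. In bulk tissue, fewer cells of a type and less RNA per cell cannot be told apart.

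Livers of T-Co and NT-Co mice were compared, which differ by tumour and implantation together. On the log2(intensity + pseudocount) scale, 5 of the 35 genes rose and 2 fell, by limma at a Benjamini-Hochberg adjusted p under 0.05, taken over all 15838 probe sets. The genes that rose were Cps1, Asl and Arg1 of the urea cycle, Mat1a at the entry to methionine breakdown, and Cdo1 at the exit of cysteine. Nags and the mitochondrial serine hydroxymethyltransferase Shmt2 fell. This is 20% of the measured genes, against 6.37% of all 9241 genes tested. Most of the amino acid genes have bright probe sets, and of the 806 genes at or above their lower quartile of intensity 14.5% were called. At an unadjusted p under 0.05 there were 15, against 21.9% of all genes, and the arrays of 20 genes did not overlap between the groups, against 26.7%. In the higher direction alone 3.58% of all genes were called, and in the lower direction 2.79%. The median difference over the 35 genes was -0.06, against -0.02 over all genes. Of the 35 differences 16 lay above 0 and 19 below.

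**Figure D1:**
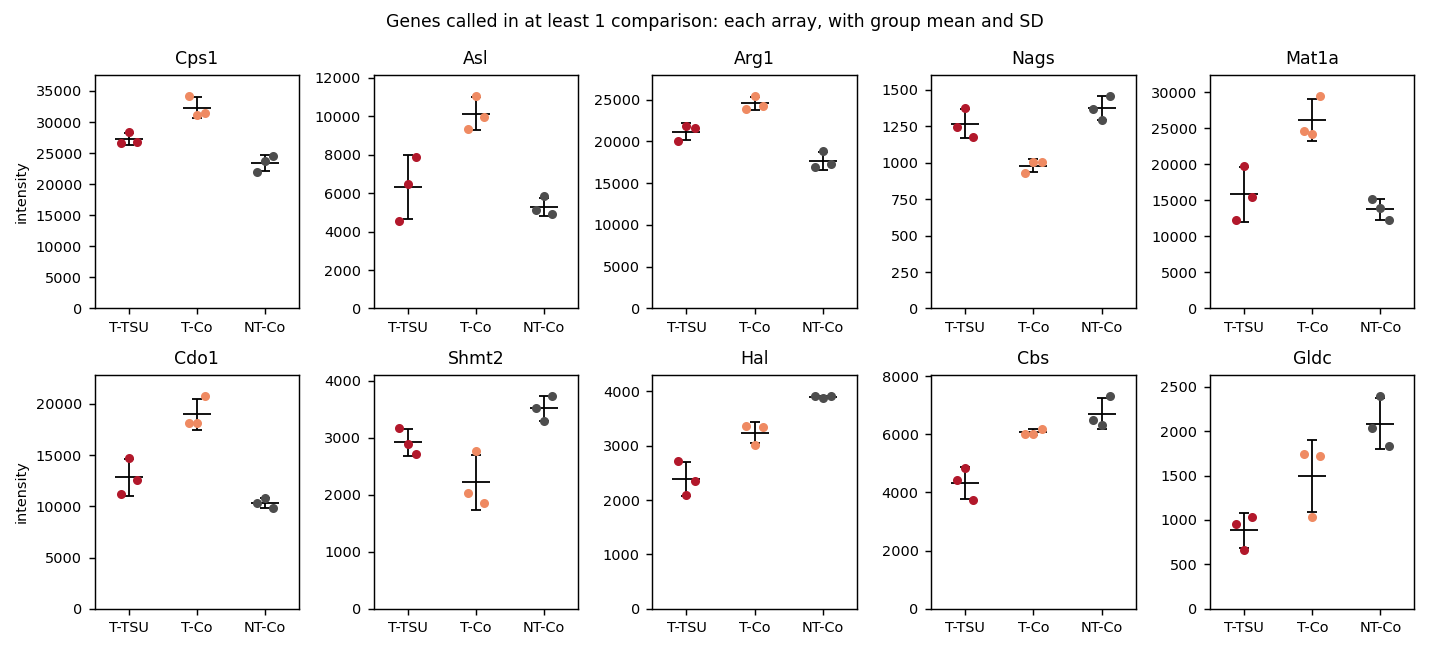
Array intensities (linear scale from 0) of the 10 genes called in at least 1 comparison, with 1 point per array and the group mean and SD in black, for T-TSU, T-Co and NT-Co. Cps1, Asl, Arg1, Mat1a and Cdo1 are high in T-Co, Nags and Shmt2 are low in T-Co, and Hal, Cbs and Gldc are lowest in T-TSU.

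In the urea cycle, Cps1, the first and rate-setting enzyme, had intensities of 34225, 31118 and 31519 in T-Co, against 21970.4, 23749 and 24496 in NT-Co. All T-Co arrays lay above all NT-Co arrays. The rise was 0.46 ± 0.09 on the log2 scale (± SE), or 1.38-fold, with adjusted p = 0.00923 by limma. Arg1, which splits arginine into urea and ornithine, had 23917, 25462 and 24249.6 in T-Co, against 16897, 18865 and 17257 in NT-Co. It rose by 0.47 ± 0.09 (adjusted p = 0.00919), nearly the same size as Cps1 and again with no overlap. Asl, which releases arginine and fumarate from argininosuccinate, had 9356, 11062 and 9971 in T-Co and 5116, 5825 and 4926 in NT-Co. Its rise of 0.94 ± 0.17, or 1.91-fold, was the largest among the 35 genes (adjusted p = 0.00737). The 3 enzymes that rose thus include the first and the last step of the cycle.

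Otc and Nags are the remaining measured genes of the cycle. Otc, which makes citrulline, had 12066, 11416 and 9431 in T-Co, against 12291, 12786 and 12888 in NT-Co, a difference of -0.21 ± 0.11 that did not pass (adjusted p = 0.271). Its point estimate lay on the other side of 0 from Cps1, and its 95% interval ran from -0.45 to 0.02. Nags, which makes the activator of Cps1, had 931, 1006 and 1005 in T-Co and 1369.8, 1293 and 1459 in NT-Co. It fell by 0.48 ± 0.13 (adjusted p = 0.0421), with every T-Co array below every NT-Co array. That call was the least stable of the 7, and passed only without T-TSU replicate 12 among the 9 fits that left out 1 array. Without NT-Co replicate 11 the adjusted p of Nags was 0.165, the highest, and without T-TSU replicate 2 it was 0.0546. The calls of Cps1, Asl and Arg1 held in all 9 fits that left out 1 array, with adjusted p of at most 0.0465, 0.0367 and 0.0454. They ended without the intensity trend of the variance (0.0873, 0.0533 and 0.0819), and that of Cps1 also without the filter (0.0529).

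Methionine and cysteine metabolism held the other rises. Mat1a, the liver enzyme that makes S-adenosylmethionine, had 24666, 24217 and 29500.3 in T-Co, against 15178, 13879.9 and 12223 in NT-Co. The lowest T-Co array was well above the highest NT-Co array, and the rise was 0.92 ± 0.16, or 1.90-fold (adjusted p = 0.00545). Cdo1, which oxidises cysteine to cysteine sulfinate, had 18091, 18133 and 20747 in T-Co and 10292, 10765 and 9816 in NT-Co. It rose by 0.88 ± 0.12, or 1.84-fold, with adjusted p = 0.00127, the smallest among the 35 genes. Mat1a and Cdo1 were the 2 genes whose calls held under all 17 alternative fits.

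The enzymes between Mat1a and Cdo1 differed less. Ahcy, which hydrolyses S-adenosylhomocysteine, had 26466, 28326 and 27929 in T-Co, against 21021, 22784 and 22395 in NT-Co, with no overlap, and its difference of 0.32 ± 0.10 did not pass (adjusted p = 0.0656). Gnmt, which uses S-adenosylmethionine to methylate glycine, differed by 0.28 ± 0.12 (adjusted p = 0.190). Bhmt, which returns homocysteine to methionine with betaine, differed by 0.11 ± 0.09. The transsulfuration enzymes Cbs and Cth, which carry homocysteine sulfur to cysteine, differed by -0.14 ± 0.12 and 0.17 ± 0.12. None of these 5 passed, and the 95% interval of Bhmt ran from -0.08 to 0.29 and that of Cbs from -0.40 to 0.12.

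Shmt2, which moves a one-carbon unit from serine to tetrahydrofolate in the mitochondrion, had 2032, 2767 and 1861 in T-Co, against 3520.1, 3303 and 3734 in NT-Co. The T-Co arrays all lay below the NT-Co arrays, and the fall was 0.68 ± 0.15 (adjusted p = 0.0189). This probe set carries the _x_ suffix, given to probe sets with probes that can match other sequences. The other 3 probe sets of Shmt2 differed by -0.36 ± 0.17, -0.34 ± 0.19 and 0.23 ± 0.39, and none of them passed. With the mean of the 4 probe sets the Shmt2 adjusted p was 0.401. The call also ended without NT-Co replicate 8 (0.0698), NT-Co replicate 11 (0.0862), T-Co replicate 9 (0.0539) or T-Co replicate 13 (0.0510). The actin ratio and the stellate, red cell and pancreatic marker sums were lower in T-Co beside all 7 called genes. The hepatocyte sum was higher, and only Tat and Ahsg of its markers were called.

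Promoter sequence is shown, so that the falls can be read beside the sequence next to the gene start, for the called genes that RefSeq's table for mouse build GRCm38.p6 held, which were 5 of the 10 called in any comparison, all of them genes that fell. The table held no entry for Cps1, Asl, Arg1, Mat1a or Cdo1. Each window holds 250 bases before and 50 after the gene start. Capitals mark matches on either strand to 6 short motifs. The core promoter motif TATAAA was held by 13.6% of the 32851 promoters in the table. The motif bound by nuclear factor Y, read as CCAAT here, was in 37.4%. The Sp1 motif, read as GGGCGG here, was in 35.7%. The core of the cyclic AMP response element, read as TGACG here, was in 20.8%. The core of the glucocorticoid response element, read as TGTTCT here, was in 19.0%. A motif that C/EBP and ATF factors bind together, read as TGATGNAA here, was in 3.97%. No matches overlapped in the windows shown. The 2 genes that fell in T-Co are shown first.
Nags (chr11:102145263-102145562, plus strand): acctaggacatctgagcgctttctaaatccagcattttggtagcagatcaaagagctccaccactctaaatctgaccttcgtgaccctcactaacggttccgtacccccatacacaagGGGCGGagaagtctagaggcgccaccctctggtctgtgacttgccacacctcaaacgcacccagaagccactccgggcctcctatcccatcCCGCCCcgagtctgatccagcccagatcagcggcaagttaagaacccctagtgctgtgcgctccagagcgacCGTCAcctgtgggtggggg
Shmt2 (chr10:127522395-127522694, minus strand): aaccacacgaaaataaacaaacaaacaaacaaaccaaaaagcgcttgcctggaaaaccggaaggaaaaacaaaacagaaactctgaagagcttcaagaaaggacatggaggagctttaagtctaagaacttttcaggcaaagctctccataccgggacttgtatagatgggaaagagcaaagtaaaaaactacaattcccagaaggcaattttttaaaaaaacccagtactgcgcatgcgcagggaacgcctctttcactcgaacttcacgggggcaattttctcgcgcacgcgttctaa
The Nags window held 2 Sp1 motifs and 1 cyclic AMP element core after the gene start, and none of the other 4 motifs. The Shmt2 window held none of the 6, which says only that these letters are not in these 300 bases.

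**Figure D2:**
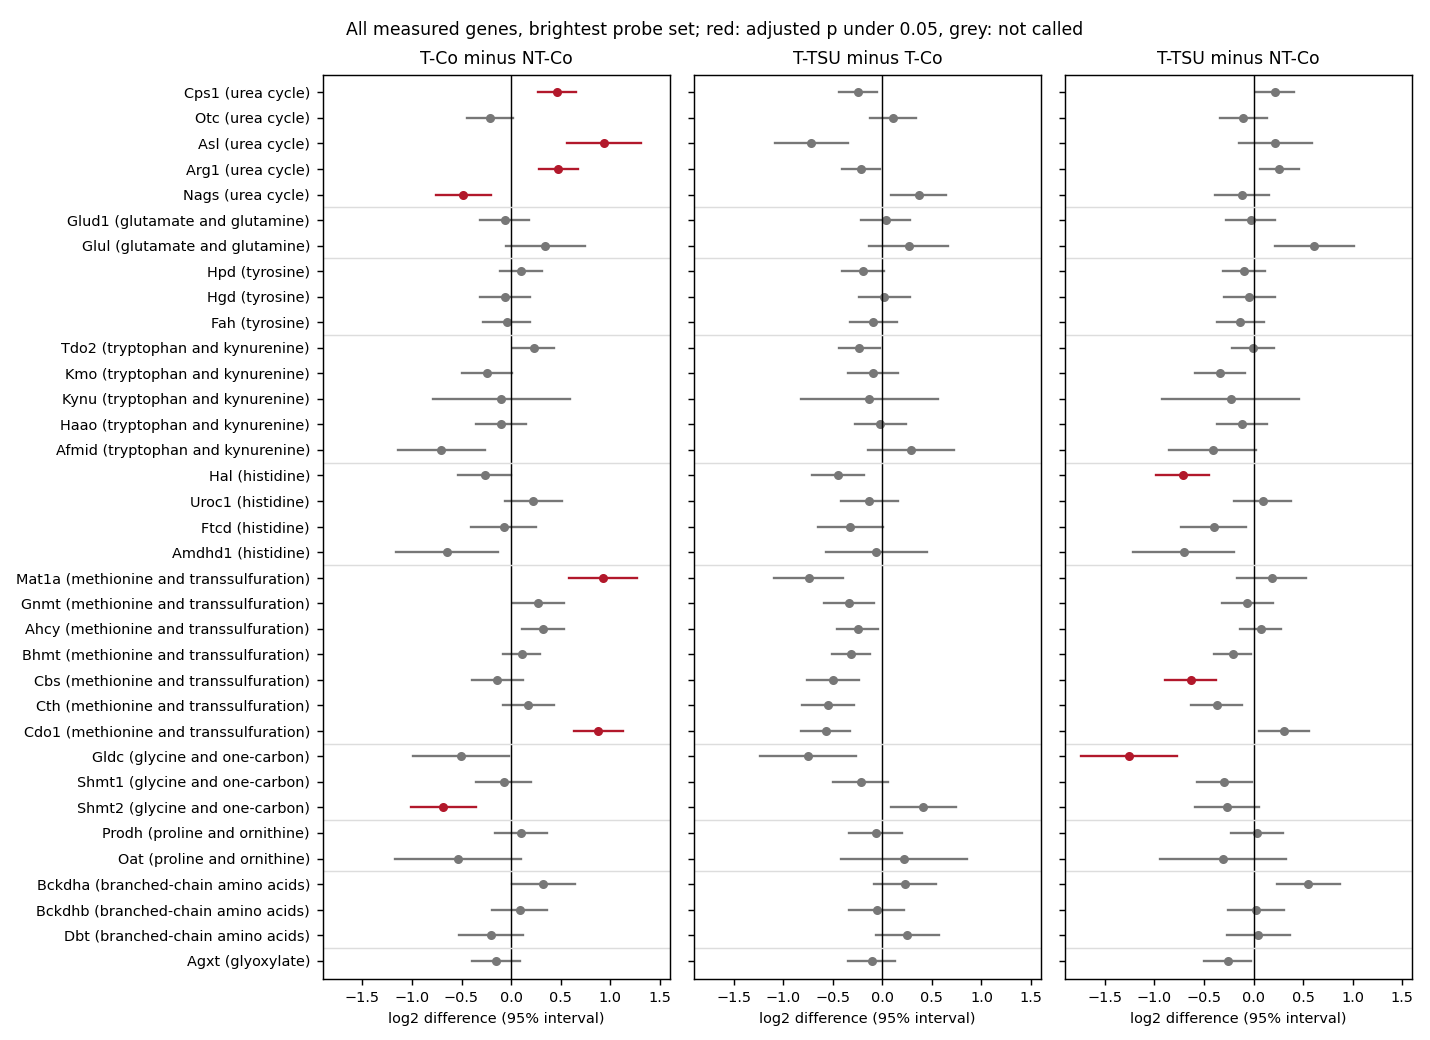
Log2 differences of the 35 measured genes, grouped by pathway, with 95% intervals from the limma fit, for T-Co minus NT-Co, T-TSU minus T-Co and T-TSU minus NT-Co. Red marks an adjusted p under 0.05 and grey the rest, so that 7, 0 and 3 genes are red in the 3 panels.

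The remaining 28 genes were not called between T-Co and NT-Co. In tyrosine breakdown, the dioxygenases Hpd and Hgd and the hydrolase Fah differed by 0.10 ± 0.10, -0.06 ± 0.12 and -0.04 ± 0.11. Their intervals all included 0 and excluded a doubling, with the widest, that of Hgd, running from -0.32 to 0.19. Tdo2, which opens the tryptophan ring, had 22263, 22999 and 25198 in T-Co and 19576, 20582 and 19974 in NT-Co, a difference of 0.23 ± 0.10 that did not pass (adjusted p = 0.189). Afmid, the next enzyme of the kynurenine route, had 172, 196 and 168 in T-Co, against 335, 293 and 262 in NT-Co. The groups of Afmid did not overlap, and its difference of -0.70 ± 0.20 narrowly missed the threshold (adjusted p = 0.0572). With arrays centred on their medians it passed (0.0367), as it did after quantile normalization (0.0465). Kmo and Haao, later in that route, differed by -0.25 ± 0.12 and -0.10 ± 0.12, and Kynu was dim, at 68.0 ± 3.54 in T-Co and 73.3 ± 2.48 in NT-Co (SD, n = 3 each).

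Among the nitrogen donors, glutamate dehydrogenase Glud1 differed by -0.07 ± 0.11 between T-Co and NT-Co. Glul, which makes glutamine from glutamate and the ammonia that escapes the urea cycle, differed by 0.35 ± 0.18. Neither passed. Oat, which links ornithine to glutamate, had 18036, 13165 and 6212 in T-Co, against 14812, 18241 and 16518 in NT-Co. Its T-Co arrays spread over nearly 3-fold, the lowest being replicate 13, and the difference of -0.53 ± 0.29 was smaller than that spread (adjusted p = 0.316). T-Co replicate 13 was likewise the lowest for Amdhd1, a histidine enzyme, with 1735, 1676 and 1007 in T-Co and 2247, 2358 and 2136 in NT-Co. Ftcd, the last of the histidine enzymes, differed by -0.08 ± 0.15. Bckdha, a subunit of the complex that commits branched-chain amino acids to oxidation, differed by 0.33 ± 0.14, and its partners Bckdhb and Dbt by 0.09 ± 0.13 and -0.20 ± 0.15. Prodh, which opens proline breakdown, differed by 0.10 ± 0.12, and Agxt, which detoxifies glyoxylate, by -0.15 ± 0.11.

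Besides Shmt2, the probe sets went apart for Uroc1 and Shmt1. Uroc1 encodes urocanase, the second enzyme of histidine breakdown. Its brighter probe set had 4154, 5879.5 and 4695 in T-Co and 3991, 4260.5 and 4219 in NT-Co, a difference of 0.23 ± 0.13 that did not pass. The dimmer one had 721, 939 and 1327 in T-Co, against 289, 235 and 278 in NT-Co. It rose by 1.83 ± 0.21, or 3.55-fold (adjusted p = 0.000789), the largest rise among the 48 probe sets. In T-TSU the same probe set had 599, 575 and 689, a rise over NT-Co of 1.19 ± 0.21 (adjusted p = 0.00720). The tumour groups therefore both lay above NT-Co on the dimmer probe set, while on the brighter one T-Co overlapped with NT-Co. With the mean of both probe sets Uroc1 was called in T-Co (adjusted p = 0.00299) and in T-TSU (0.0333) against NT-Co.

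Shmt1, the cytosolic counterpart of Shmt2, had 4 probe sets. The brightest differed by -0.07 ± 0.13 between T-Co and NT-Co and the dimmest by 0.00 ± 0.15, and neither passed. The other 2 fell, the third in brightness by 0.88 ± 0.16 (adjusted p = 0.00700) and the second by 0.67 ± 0.18 (0.0495). On the third the intensities were 1276, 1187 and 1095 in T-Co, against 2232, 2115 and 2199 in NT-Co, without overlap. Probe sets of 1 gene can read different transcripts, and which transcripts these read is not recorded in the files. The probe sets of Otc, Glud1, Glul, Tdo2 and Cbs each had the same sign between T-Co and NT-Co, and none of them was called.

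**Figure D3:**
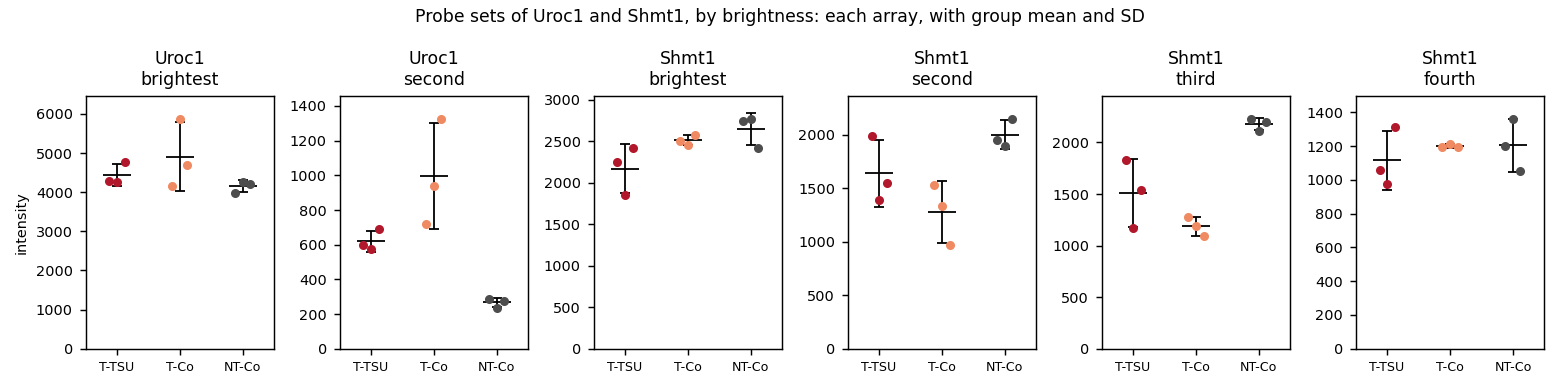
Array intensities (linear scale from 0) of both Uroc1 probe sets and the 4 Shmt1 probe sets, with 1 point per array and the group mean and SD in black, for T-TSU, T-Co and NT-Co. The dimmer Uroc1 probe set lies higher in T-TSU and T-Co than in NT-Co, while the brighter one overlaps between T-Co and NT-Co. The Shmt1 probe sets in the second and the third place are lowest in T-Co.

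Livers of T-TSU and T-Co mice were compared for the action of the drug in the presence of a tumour. None of the 35 genes was called by limma, where 0.0541% of all genes were. At an unadjusted p under 0.05 there were 15 genes, 13 lower and 2 higher in T-TSU, or 42.9% of the 35, against 11.5% of all genes tested. The share at this p among the 806 bright genes alone was not computed. The median difference was -0.13, against 0.00 over all genes and -0.21 over the 8 measured hepatocyte markers. Leaving out T-TSU replicate 12 gave 2 calls, both lower in T-TSU, and the other 8 fits that left out 1 array gave none.

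These 2 were Mat1a and Cdo1. Mat1a had 12234, 19786 and 15524 in T-TSU, against 24666, 24217 and 29500.3 in T-Co, with replicate 12 the highest of the T-TSU arrays. Its difference was -0.74 ± 0.16 with a 95% interval from -1.09 to -0.40 (adjusted p = 0.133 with all arrays, 0.0339 without T-TSU replicate 12). Cdo1 had 11178, 14732 and 12563 in T-TSU, against 18091, 18133 and 20747 in T-Co, and its difference was -0.57 ± 0.12 (adjusted p = 0.126 with all arrays, 0.0365 without that array). For both genes every T-TSU array lay below every T-Co array. The comparisons with T-Co and with NT-Co share the T-Co or T-TSU arrays, so the values are set side by side here and not counted as separate evidence.

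All 7 methionine and cysteine genes had a difference below 0 between T-TSU and T-Co, each at an unadjusted p under 0.05, and 6 of the 7 did not overlap, against 14.7% of all genes. None passed adjustment. Cth had 11454, 9600.4 and 9205 in T-TSU and 13431, 14342 and 16423 in T-Co, and its difference was -0.55 ± 0.12 (adjusted p = 0.133). Cbs had 4409.8, 4845 and 3734 in T-TSU, against 6021, 6022 and 6184 in T-Co, and it differed by -0.50 ± 0.12 (adjusted p = 0.176). Bhmt had 30162, 33892 and 30518 in T-TSU, against 40071, 38207 and 39206 in T-Co, a difference of -0.31 ± 0.09. Gnmt (-0.34 ± 0.12) overlapped between the groups, and Ahcy (-0.25 ± 0.10) did not.

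In the urea cycle, Asl had 4552, 6479 and 7898 in T-TSU and 9356, 11062 and 9971 in T-Co. The T-TSU arrays were all lower but spread widely, and their difference, -0.72 ± 0.17, missed the threshold (adjusted p = 0.176). Cps1 had 26647, 28329.9 and 26719 in T-TSU, against 34225, 31118 and 31519 in T-Co, and differed by -0.24 ± 0.09 (interval -0.44 to -0.05). Arg1 had 19991, 21852 and 21651 in T-TSU, against 23917, 25462 and 24249.6 in T-Co, and differed by -0.21 ± 0.09. Nags had 1249, 1379 and 1178 in T-TSU, against 931, 1006 and 1005 in T-Co, a difference of 0.37 ± 0.13 in the other direction, and Otc differed by 0.11 ± 0.11. The actin ratio overlapped between T-TSU and T-Co. The summed hepatocyte, macrophage and endothelial markers were lower, and the red cell markers higher, on every T-TSU array than on any T-Co array.

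Outside these pathways, Gldc had 954, 659 and 1032 in T-TSU, against 1744, 1033 and 1718 in T-Co, and it differed by -0.75 ± 0.22 (adjusted p = 0.266). T-Co replicate 10 was level with the highest T-TSU array. Hal, which opens histidine breakdown, had 2714, 2097 and 2350.2 in T-TSU and 3369, 3009 and 3342 in T-Co, without overlap, and differed by -0.45 ± 0.12 (adjusted p = 0.219). Shmt2 had 3179, 2886 and 2711 in T-TSU, against 2032, 2767 and 1861 in T-Co, and its difference of 0.41 ± 0.15 and that of Nags were the 2 above 0 at an unadjusted p under 0.05. Tdo2 differed by -0.23 ± 0.10. The 20 genes at a higher unadjusted p lay between -0.32 for Ftcd and 0.29 for Afmid, and they included all 3 tyrosine genes, Glud1, Glul, Oat, Prodh, Agxt and the 3 branched-chain genes.

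Livers of T-TSU and NT-Co mice differ by tumour, implantation and drug together. Here 3 genes fell and none rose. The genes were Hal, Cbs and Gldc, which is 8.57% of the 35, against 3.7% of all genes called in either direction, 2.12% in the higher and 1.58% in the lower one. At an unadjusted p under 0.05 there were 15, 5 higher and 10 lower, against 16.5% of all genes. Among the 806 bright genes 5.96% were called, and 0.124% between T-TSU and T-Co. The median difference was -0.10, against -0.01 over all genes. Of the 35 differences 12 lay above 0 and 23 below.

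Hal, histidine ammonia-lyase, had 2714, 2097 and 2350.2 in T-TSU, against 3911, 3874 and 3907 in NT-Co. The NT-Co arrays were nearly identical, and the fall was 0.71 ± 0.12, or a ratio of 0.610 (adjusted p = 0.00660). T-Co lay between them, at 3369, 3009 and 3342, and differed from NT-Co by -0.27 ± 0.12, which did not pass (adjusted p = 0.219). Gldc, the decarboxylase of the glycine cleavage system, had 954, 659 and 1032 in T-TSU and 2030.3, 2395 and 1832 in NT-Co. Its fall of 1.25 ± 0.22, a ratio of 0.420, was the largest difference among the 35 genes in any comparison (adjusted p = 0.00806). The T-Co arrays of Gldc, at 1744, 1033 and 1718, were also between, and differed from NT-Co by -0.51 ± 0.22 (adjusted p = 0.204).

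Cbs, which joins homocysteine and serine, had 4409.8, 4845 and 3734 in T-TSU, against 6488, 6307 and 7310.2 in NT-Co, and fell by 0.63 ± 0.12 (adjusted p = 0.0109). Its second probe set fell by 0.57 ± 0.13 (adjusted p = 0.0283). The Cbs call ended without NT-Co replicate 11 (0.0618) or T-TSU replicate 14 (0.0532). Those of Hal and Gldc held in all 9 such fits, and ended without the intensity trend (0.0505 and 0.0551), as did that of Cbs (0.0746). Beside these falls the actin ratio and the pancreatic marker sum too were lower in T-TSU.

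The promoter windows of the 3 genes that fell in T-TSU are shown with the motifs listed above in capitals.
Hal (chr10:93488518-93488817, plus strand): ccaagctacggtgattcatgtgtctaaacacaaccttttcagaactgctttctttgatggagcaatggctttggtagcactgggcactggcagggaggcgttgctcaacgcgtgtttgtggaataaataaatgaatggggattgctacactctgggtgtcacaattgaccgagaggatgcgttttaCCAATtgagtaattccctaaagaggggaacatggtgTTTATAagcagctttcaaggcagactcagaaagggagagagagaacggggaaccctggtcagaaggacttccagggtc
Cbs (chr17:31637156-31637455, minus strand): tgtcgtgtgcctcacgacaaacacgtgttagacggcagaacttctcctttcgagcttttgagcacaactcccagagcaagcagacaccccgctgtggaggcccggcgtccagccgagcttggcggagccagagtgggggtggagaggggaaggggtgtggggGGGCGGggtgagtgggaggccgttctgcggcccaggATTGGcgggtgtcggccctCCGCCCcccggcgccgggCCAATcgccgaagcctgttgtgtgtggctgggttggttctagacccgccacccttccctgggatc
Gldc (chr19:30175392-30175691, minus strand): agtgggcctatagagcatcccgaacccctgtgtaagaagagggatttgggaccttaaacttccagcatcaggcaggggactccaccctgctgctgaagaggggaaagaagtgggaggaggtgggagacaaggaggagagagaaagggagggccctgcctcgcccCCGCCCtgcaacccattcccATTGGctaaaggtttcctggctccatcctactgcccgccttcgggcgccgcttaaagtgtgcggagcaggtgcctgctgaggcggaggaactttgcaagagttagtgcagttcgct
All 3 windows held the nuclear factor Y motif on one strand or the other, as did 37.4% of all promoters, with 2 in Cbs. Hal held the letters TATAAA on the strand opposite to the gene, in bases starting at -28, and no Sp1 motif. The gene's own strand reads TATAAG across part of the same bases, a spelling that was not searched. Cbs held 2 Sp1 motifs and Gldc held 1, and neither held the TATA motif. The other 3 motifs were in none of these windows.

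The 5 genes that had risen in T-Co were not called between T-TSU and NT-Co. The differences were 0.18 ± 0.16 for Mat1a, 0.31 ± 0.12 for Cdo1, 0.22 ± 0.17 for Asl, 0.22 ± 0.09 for Cps1 and 0.26 ± 0.09 for Arg1. Cps1, Arg1 and Cdo1 were nevertheless higher on every T-TSU array than on every NT-Co array. Such a lack of overlap, in either direction, held for 18 of the 35 genes and for 24.2% of all genes. The interval for Cdo1 ran from 0.06 to 0.56 and that for Mat1a from -0.16 to 0.53. Nags and Shmt2 differed from NT-Co by -0.12 ± 0.13 and -0.27 ± 0.15.

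Glul and Bckdha were higher on every T-TSU array than on any NT-Co array without passing. Glul had 6564, 4817 and 4854 in T-TSU, against 2824, 4319 and 3511 in NT-Co, a difference of 0.61 ± 0.18 (adjusted p = 0.0923). Bckdha had 2611, 2536 and 2803 in T-TSU and 1809.9, 1799 and 1799 in NT-Co, and differed by 0.55 ± 0.14 (adjusted p = 0.0554). It passed in the fit of these 2 groups alone (0.0124), without T-Co replicate 10 (0.0198) and without T-Co replicate 13 (0.0218). Amdhd1 had 1968, 1145 and 1149 in T-TSU, with replicate 2 well above the others, and differed from NT-Co by -0.71 ± 0.23 (adjusted p = 0.132, or 0.0343 without T-TSU replicate 2). Ftcd, which completes histidine breakdown, differed by -0.40 ± 0.15, so 3 of the 4 histidine genes had arrays entirely below NT-Co. The brighter Uroc1 probe set lay narrowly above, its lowest T-TSU array at 4272 and its highest NT-Co array at 4260.5. That difference of 0.09 ± 0.13 did not pass (adjusted p = 0.807 by limma). A lack of overlap, in either direction, held for 24.2% of all genes.

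Taking the 3 groups at once, the moderated F test of limma called 10 of the 35 genes, or 28.6%, against 5.69% of all genes. These were 9 of the 10 genes called in a comparison, all but Nags (adjusted p = 0.0776), together with Cth (adjusted p = 0.0382). Cdo1 had the smallest adjusted p, 0.00252. The F test share among the 806 bright genes alone was not computed. The count was 3 when NT-Co replicate 8 or 11 was left out, and 6 when NT-Co replicate 10 was.

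A wider list of amino acid genes, covering aminotransferases, carriers, cofactor enzymes and the later steps of each route, had 81 of 104 genes tested. Between T-Co and NT-Co 9 rose and 1 fell, which is 12.3%, against 6.37% of all genes and 14.5% of the 806 bright genes. None was called between T-TSU and T-Co by limma, with 23 at an unadjusted p under 0.05. Between T-TSU and NT-Co 4 rose and 1 fell, which is 6.17%, against 3.7% of all genes and 5.96% of the bright genes. A share among genes matched to the wider list in intensity was not computed. The count for T-Co against NT-Co was 3 to 10 when 1 array was left out, the lowest without NT-Co replicate 11. It was 4 without NT-Co replicate 8 or NT-Co replicate 10. For T-TSU against NT-Co the count was 2 without NT-Co replicate 11, T-TSU replicate 12 or T-TSU replicate 14.

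Aminotransferases made up 4 of the 9 rises in T-Co, among 9 tested, where 3.58% of all genes rose. Got1 is the cytosolic aspartate aminotransferase. It had 7507, 9644 and 7449.8 in T-Co, against 2723, 2662 and 2158 in NT-Co. It rose by 1.70 ± 0.25 (adjusted p = 0.00220), and in T-TSU it had 2073, 4530.4 and 4319.5, a difference from T-Co of -1.24 ± 0.25 that did not pass (adjusted p = 0.122, or 0.0451 without T-TSU replicate 12). Tat, the tyrosine aminotransferase, had 22745, 21876 and 23815 in T-Co and 12689, 11970.3 and 13060.5 in NT-Co and rose by 0.86 ± 0.20 (adjusted p = 0.0230). The T-TSU arrays of Tat lay apart, at 10656, 20624 and 19986, with replicate 2 below the NT-Co arrays and the other 2 above them. Its call in T-Co ended without any 1 of the NT-Co arrays, T-Co replicate 9 or T-Co replicate 13, with adjusted p from 0.0523 to 0.0735. Gpt2, the mitochondrial alanine aminotransferase, had 5588, 5280.3 and 5561 in T-TSU, 4627, 5910.2 and 3632 in T-Co and 3113, 2954 and 3174 in NT-Co. It rose in T-TSU over NT-Co by 0.83 ± 0.15 (adjusted p = 0.00994) and in T-Co by 0.59 ± 0.15 (0.0393). Among the fits that left out 1 array, the T-Co call held only without T-Co replicate 13, with adjusted p up to 0.109 without NT-Co replicate 8, while the T-TSU call held in all 9.

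Amino acid carriers contributed another 4 rises in T-Co, among 13 tested, again beside 3.58% of all genes. Slc38a2, a sodium-coupled carrier of small neutral amino acids, had 2107, 2787 and 4121 in T-TSU and 3379.7, 4701 and 4895 in T-Co, against 1065, 849 and 1318 in NT-Co. It rose by 2.00 ± 0.24 in T-Co (adjusted p = 0.000861) and by 1.44 ± 0.24 in T-TSU (0.00564), and both calls held under all 17 alternatives. Slc7a2, which carries arginine and other cationic amino acids, rose by 0.84 ± 0.21 in T-Co (0.0347) and 0.98 ± 0.21 in T-TSU (0.0225). Slc25a47, a mitochondrial carrier of hepatocytes, rose by 0.83 ± 0.19 in T-Co (0.0205) and by 0.84 ± 0.19 in T-TSU (0.0248). These 3 carriers were thus called in both tumour groups.

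The call of Slc7a2 in T-Co ended without NT-Co replicate 10, NT-Co replicate 11, T-Co replicate 10 or T-TSU replicate 14, with adjusted p up to 0.112. That of Slc25a47 in T-Co ended without NT-Co replicate 8 (0.0698) or NT-Co replicate 11 (0.0812). In T-TSU the Slc7a2 call ended without NT-Co replicate 10 or 11 or T-TSU replicate 12 or 14, and the Slc25a47 call without any 1 of the NT-Co or T-TSU arrays, with adjusted p up to 0.0953 and 0.0975. The remaining rises in T-Co were those of Gpt, the cytosolic alanine aminotransferase (0.41 ± 0.11), the carrier Slc38a4 (0.38 ± 0.10) and Gch1, the first enzyme of tetrahydrobiopterin synthesis (0.81 ± 0.20), which are named after their values were seen. The Gpt call held, among the fits that left out 1 array, only without T-TSU replicate 2. In those fits the Slc38a4 call held only without a T-TSU array, and that of Gch1 only without T-Co replicate 13 or a T-TSU array. With the mean of a gene's probe sets, the calls of Gch1 (0.43, adjusted p = 0.233 by limma) and Slc38a4 (0.36, 0.0629) ended.

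Downstream of the branched-chain complex, Mmut, the methylmalonyl-CoA mutase, had 2263, 1934 and 2043 in T-Co, against 3457, 3195 and 3524 in NT-Co, and fell by 0.71 ± 0.12 (adjusted p = 0.00589). Its other tested probe set was not called. In T-TSU it had 2960.4, 2509 and 2448. All 17 genes of this downstream group had a difference above 0 between T-TSU and T-Co, 8 of them at an unadjusted p under 0.05, with a median of 0.33. Of all genes, 50.2% lay above 0 and 11.5% were at such a p, with a median of 0.00. None of the 17 was called. Between T-Co and NT-Co 15 of the same 17 lay below 0, with a median of -0.22, where 48.3% of all genes lay above 0 with a median of -0.02, and these comparisons share the T-Co arrays. Ethe1, which oxidises sulfide from cysteine breakdown, fell in T-TSU by 0.87 ± 0.19 against NT-Co (adjusted p = 0.0256). That call ended without any 1 of NT-Co replicates 10 and 11 and T-TSU replicates 12 and 14, with adjusted p up to 0.114.

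**Figure D4:**
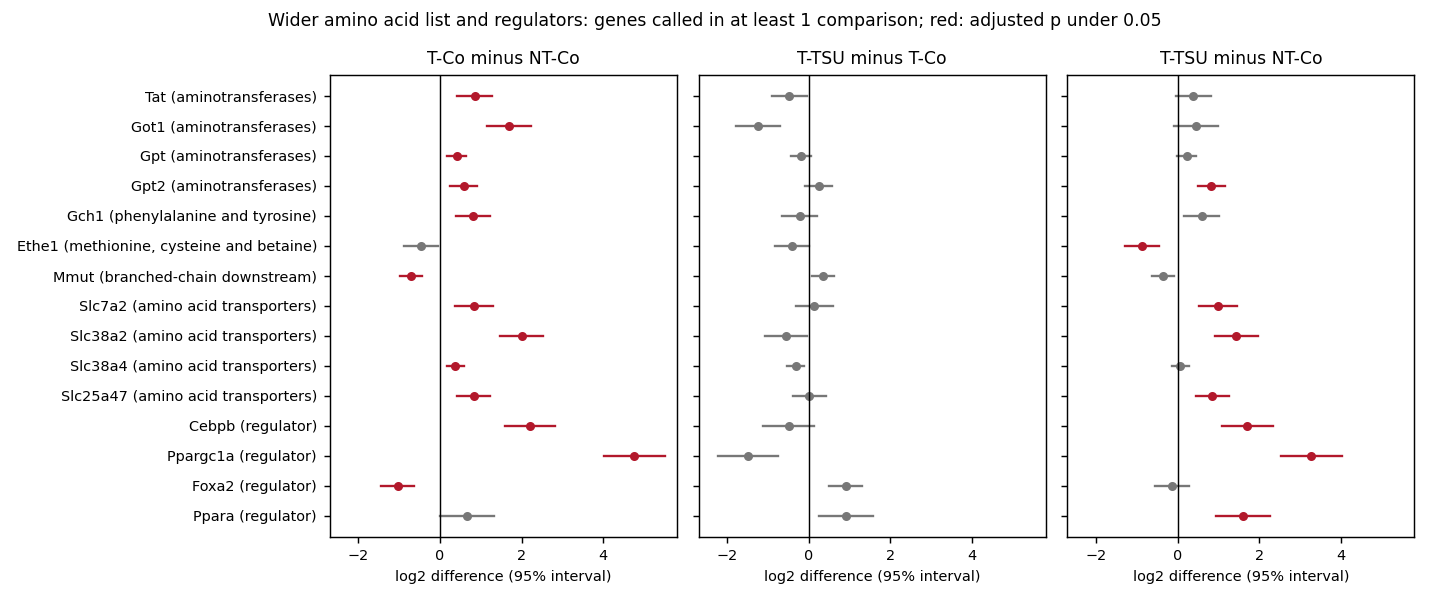
Log2 differences with 95% intervals from the limma fit for the 11 genes of the wider amino acid list and the 4 regulators that were called in at least 1 comparison, for T-Co minus NT-Co, T-TSU minus T-Co and T-TSU minus NT-Co. Red marks an adjusted p under 0.05. No gene is red in the T-TSU minus T-Co panel.

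Of 17 measured regulators of these enzymes, 2 rose and 1 fell in T-Co against NT-Co, which is 17.6%, against 6.37% of all genes (3.58% higher and 2.79% lower). Between T-TSU and NT-Co 3 rose, again 17.6%, against 3.7% of all genes. Both counts include Ppargc1a, which was in the test only through its values in the tumour groups, so both shares rest partly on it. Ppargc1a, the coactivator PGC-1 alpha, which induces fasting genes in the liver, had 349, 682 and 398 in T-Co and 5.65, 8.23 and 15.0 in NT-Co, where it was below the filter intensity of 42.0, so that it entered the test through the tumour groups. The fitted rise of 4.76 ± 0.34 (adjusted p = 5.44e-05) is therefore of uncertain size, and the other 4 probe sets of the gene differed by 1.29 to 2.08, of which 2 were called. In T-TSU it had 111, 207 and 169, again a rise over NT-Co (adjusted p = 0.000471). That call ended with the mean of its probe sets (0.0579), and the other 4 differed by 0.59 to 1.18 in T-TSU, with none called. Cebpb, a transcription factor of the fasting and acute phase responses, had 2817, 3939 and 4173 in T-TSU, 3049, 6982 and 6099.7 in T-Co and 874, 1008 and 1479.7 in NT-Co. It rose by 2.20 ± 0.29 in T-Co (0.00122) and by 1.71 ± 0.29 in T-TSU (0.00601). Without the intensity trend the T-TSU call of Cebpb ended (0.0502).

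Foxa2, a liver-enriched forkhead factor, had 276, 387 and 379 in T-Co, against 796, 603 and 756 in NT-Co, and fell by 1.04 ± 0.19 (adjusted p = 0.00712). Its T-TSU arrays, at 543, 695 and 726, overlapped with NT-Co. Ppara, the receptor that turns on fatty acid oxidation in fasting, had 4489, 4005 and 3000.2 in T-TSU and 1309, 1213 and 1227 in NT-Co and rose by 1.59 ± 0.31 (adjusted p = 0.0122). The Ppara call ended without the intensity trend (0.0721), without NT-Co replicate 11 (0.0503) or T-TSU replicate 12 (0.0543), and in T-Co, where the arrays read 1846, 3637 and 1181, it passed against NT-Co only without replicate 13 (0.0324). Between T-TSU and T-Co it passed only without T-Co replicate 10 (0.0432). Hnf4a (-0.22 ± 0.16), the glucocorticoid receptor Nr3c1 (0.06 ± 0.16) and Atf4 (0.18 ± 0.16) were not called in T-Co, and Klf15, an inducer of amino acid breakdown, differed by 0.49 ± 0.16 (adjusted p = 0.0936).

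Cps1, Arg1 and Hal also belong to a list of periportal hepatocyte markers, of which 8 were measured. In T-Co against NT-Co 3 of these rose, against 3.58% of all genes, namely Cps1, Arg1 and Pck1 of gluconeogenesis. Hal lay lower in T-Co without being called and fell in T-TSU, as given above. In T-TSU against NT-Co 1 other marker of the list rose, against 2.12% of all genes. The median difference of the list in T-Co was -0.06. Of 14 measured pericentral markers, among them Glul and Oat, none rose and 1 fell, with a median of -0.22. The summed intensity of the periportal markers was 86256 to 93406 in T-TSU, 100968 to 107405 in T-Co and 81195 to 90650.4 in NT-Co. That of the pericentral markers was 100115 to 110032 in T-TSU, 84923 to 106040 in T-Co and 97627 to 113282 in NT-Co. The periportal sum, of which Cps1, Arg1 and Hal are part, was higher on every T-Co array than on any NT-Co or T-TSU array. Cps1 and Arg1 hold much of it, with means of 32287.5 and 24543 in T-Co, against 23405 and 17673 in NT-Co. The sum thus largely restates their rises, and the list median was near 0. The pericentral sums overlapped.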

How the data were processed

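The authors' deposited values are linear array intensities, 1 per probe set and sample, already scaled per array. How they were summarised is not stated. By the labels' protocols (per the labels), 5 µg of total RNA was converted to biotin-labelled cRNA with a one-cycle kit. Of 22690 probe sets, 64 controls were dropped. Of the remaining 22626, 20380 were annotated to 1 gene, 691 to several and 1555 to none. Of the 20380, 20351 were found in the RefSeq table.

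A pseudocount of 7.92, the 10th percentile of the intensities, was added before log2 was taken, so fold changes of dim genes are understated. Probe sets with a mean intensity under the 30th percentile were left out, leaving 15838, among them those of 9241 named genes. No further normalization was applied. One model of group means over all 9 arrays was fitted with limma 3.58.1 in R 4.3.3 (6 residual degrees of freedom, eBayes with an intensity trend). P-values are two-sided and adjusted over all 15838 probe sets by Benjamini-Hochberg, and the scripts were tested on simulated data. Arrays were grouped by their titles, and no 2 arrays held identical values. The number of arrays limits the precision.

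The genes and lists were chosen with earlier results of these data known. Every called gene is described with its values. Of the wider list and the regulators, up to 12 called genes with the smallest F test p are named by rule. Alternatives were pseudocounts of 32 and 1, no filter, quantile normalization, median centring, no intensity trend, only the 2 groups compared, the mean of a gene's probe sets, and each array left out. For the wider list, running these was chosen after seeing the data. The table gives no coordinates. Promoter coordinates are those of RefSeq's GRCm38.p6.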

Additional observations from a re-analysis of the deposited data

How the results depend on the processing

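Of 1785 values of the 35 genes under 17 alternatives, 1748 stayed on the same side of the threshold, 25 lost a call, 12 gained one and 0 reversed a call. Most of these values had no call to lose. Of the 10 called values, for T-Co or T-TSU against NT-Co, 2 kept the call under every alternative. Without the intensity trend, 2 of the 35 genes were called for T-Co against NT-Co (Mat1a and Cdo1), 0 for T-TSU against NT-Co and 1 by the F test. The wider list then had 3 and 1 calls in those comparisons, and all probe sets 470, 262 and, for T-TSU against T-Co, 0. The cause was not tested. Fitting only the 2 groups compared gave 6 calls of the wider list for T-Co against NT-Co. Centring the arrays moved the median over the 35 genes to -0.12 in that comparison. For T-TSU against T-Co all probe sets called numbered 8, and 26 with a pseudocount of 32, 1 after quantile normalization and 0 with no filter, with centred arrays, with only these groups or with the mean of a gene's probe sets. With that mean, which tests fewer features, 570 genes were called for T-Co against NT-Co and 330 for T-TSU against NT-Co.

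With 1 array left out, T-Co against NT-Co gave 5 to 7 of the 35 genes, 451 to 1018 probe sets, 3 to 10 of the wider list and a median of -0.063 to -0.013. T-TSU against T-Co gave 0 to 2 genes, 0 to 59 probe sets, 0 to 1 of the wider list and a median of -0.20 to -0.10. T-TSU against NT-Co gave 2 to 4 genes, 293 to 800 probe sets, 2 to 6 of the wider list and a median of -0.12 to -0.049. The F test called 3 to 10 genes. Counts over all probe sets moved by over 1.5 times without NT-Co replicate 8 (468, 4 and 323 in the 3 comparisons) or 11 (451, 0 and 299). For T-TSU against T-Co they also did so without T-Co replicate 10 (34) or any T-TSU array (0, 59 and 0 for replicates 2, 12 and 14). Those for T-TSU against NT-Co did so without NT-Co replicate 10 (411) or T-TSU replicate 12 or 14 (318 and 293). No paired analysis was made, because no pairing of samples between the groups is given. Signal limits Kynu and, in NT-Co, Ppargc1a and Pecam1.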
